A study of Mus musculus with 12 samples.

Results

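The genes described here are the peroxisome proliferator-activated receptors PPARα, PPARδ and PPARγ (Ppara, Ppard and Pparg), the retinoid X receptors that pair with them (Rxra, Rxrb and Rxrg) and the coactivators PGC-1α and PGC-1β (Ppargc1a and Ppargc1b). They were taken by symbol from the deposited expression table, in which each symbol stood for 1 Ensembl gene, and they are 8 of its 46983 genes. RNA was sequenced from C2C12 cells, a mouse myoblast line that fuses into myotubes in culture. The WT cells carried the PiggyBac vector PB-IP, and the PPARγ/+ cells carried the PPARγ coding sequence in that vector and were selected with puromycin. Each cell type was collected on 0d and on 5d of differentiation, which gives the groups WT_0d, WT_5d, PPARγ/+_0d and PPARγ/+_5d with 3 libraries each. The submitters' design text speaks of inducible cells with uninduced controls, whereas the methods describe stably selected cells, and how many clones they held is not given in the sources used here. The study calls the libraries of a group biological replicates, and neither it nor the labels say whether they came from separate cultures, so the p-values measure only the spread between these libraries.

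The PPARs are nuclear receptors that respond to fatty acids and their derivatives and bind DNA as heterodimers with an RXR, where coactivators such as the PGC-1 proteins join them. PPARγ drives adipocyte differentiation, while PPARα and PPARδ are known for genes of fatty acid oxidation, PPARδ being the main form of skeletal muscle. PGC-1α and PGC-1β promote mitochondrial biogenesis, and RXRγ is the RXR form best known from skeletal muscle and heart.

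Levels are given as FPKM, fragments scaled to the length of the gene and to the mapped fragments of the library, so that genes of different length can be compared. The FPKM of Ppard and Rxrb went with inferred lengths of 4631 and 3698 bp, against 7514 and 3973 bp in the annotation. At the annotated lengths the same fragments would give lower levels of these 2 genes, which could change their place in the order. The fragments assigned to genes, recovered from the FPKM, numbered from 15555628 in PPARγ/+_5d replicate 3 to 22010195 in PPARγ/+_0d replicate 2. Intervals and floors from them cover counting error only. The muscle regulator Myod1 was above 5 FPKM in all 12 libraries, and Myog, which marks the onset of differentiation, was called higher on 5d in both cell types. Its log2 difference was 5.40 in WT cells (4.71 to 6.37 with a library left out) and 5.90 in PPARγ/+ cells (5.40 to 6.51). The endothelial markers Pecam1, Cdh5, Kdr and Tek summed to at most 0.233 FPKM in any library.

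Some libraries lay apart from the others of their group. Myog was 271, 215 and 90.01 FPKM in WT_5d replicates 1 to 3, and across genes replicate 3 correlated with the other WT_5d libraries at r = 0.961 and 0.969, against 0.977 between those. It correlated at r = 0.973, 0.973 and 0.969 with the PPARγ/+_5d libraries, while its Pparg, at 4.59 FPKM, lay below that of every PPARγ/+ library. In WT_0d Myog was 2.69, 15.7 and 1.47 FPKM, with replicate 2 the highest. The Myog difference in WT cells was 5.88 without WT_5d replicate 3 and 6.37 without WT_0d replicate 2. PPARγ/+_5d replicate 3 had the highest Pparg of all libraries. Calls and counts of calls that changed without these libraries are given both ways beside the results or, for all tested genes, as ranges over the left-out libraries.

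In WT cells on 0d, Ppard and Rxrb stood highest among the receptors, with levels of 11.9 ± 1.65 FPKM and 11.9 ± 1.56 FPKM (SD, n = 3), followed by Rxra at 9.98 ± 0.9503 FPKM. The libraries of these neighbours overlapped, but within each WT_0d library Rxra lay below Rxrb. Pparg followed at 6.53 ± 1.27 FPKM and Ppargc1b at 1.396 ± 0.224 FPKM, both apart from their neighbours in the order. Ppargc1a at 0.125 ± 0.0395 FPKM and Ppara at 0.0518 ± 0.0270 FPKM were near the detection limit, and Rxrg was listed at 0. In PPARγ/+ cells on 0d Pparg came first, at 39.6 ± 10.1 FPKM. It stood above Rxrb at 13.8 ± 1.03 FPKM, Rxra at 13.1 ± 1.52 FPKM and Ppard at 12.1 ± 1.44 FPKM, which lay within each other's spread. Ppargc1b followed at 0.517 ± 0.136 FPKM. Ppara at 0.111 ± 0.0172 FPKM then stood above Ppargc1a at 0.0260 ± 0.0213 FPKM, the reverse of WT_0d.

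On 5d the order in WT cells was Rxra at 14.1 ± 2.64 FPKM, Rxrb at 11.3 ± 1.30 FPKM, Ppard at 8.84 ± 0.377 FPKM, Pparg at 3.75 ± 0.760 FPKM and Ppargc1b at 1.52 ± 0.342 FPKM. In PPARγ/+ cells it was Pparg at 58.9 ± 29.3 FPKM, Rxra at 16.1 ± 0.407 FPKM, Rxrb at 11.6 ± 0.279 FPKM, Ppard at 9.99 ± 0.229 FPKM and Ppargc1b at 1.06 ± 0.188 FPKM. Among these neighbours only Rxra and Rxrb of the WT cells overlapped, with Rxra above Rxrb within each library. Ppargc1a and Ppara stayed under 0.15 FPKM on average in all 4 groups.

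**Figure D1:**
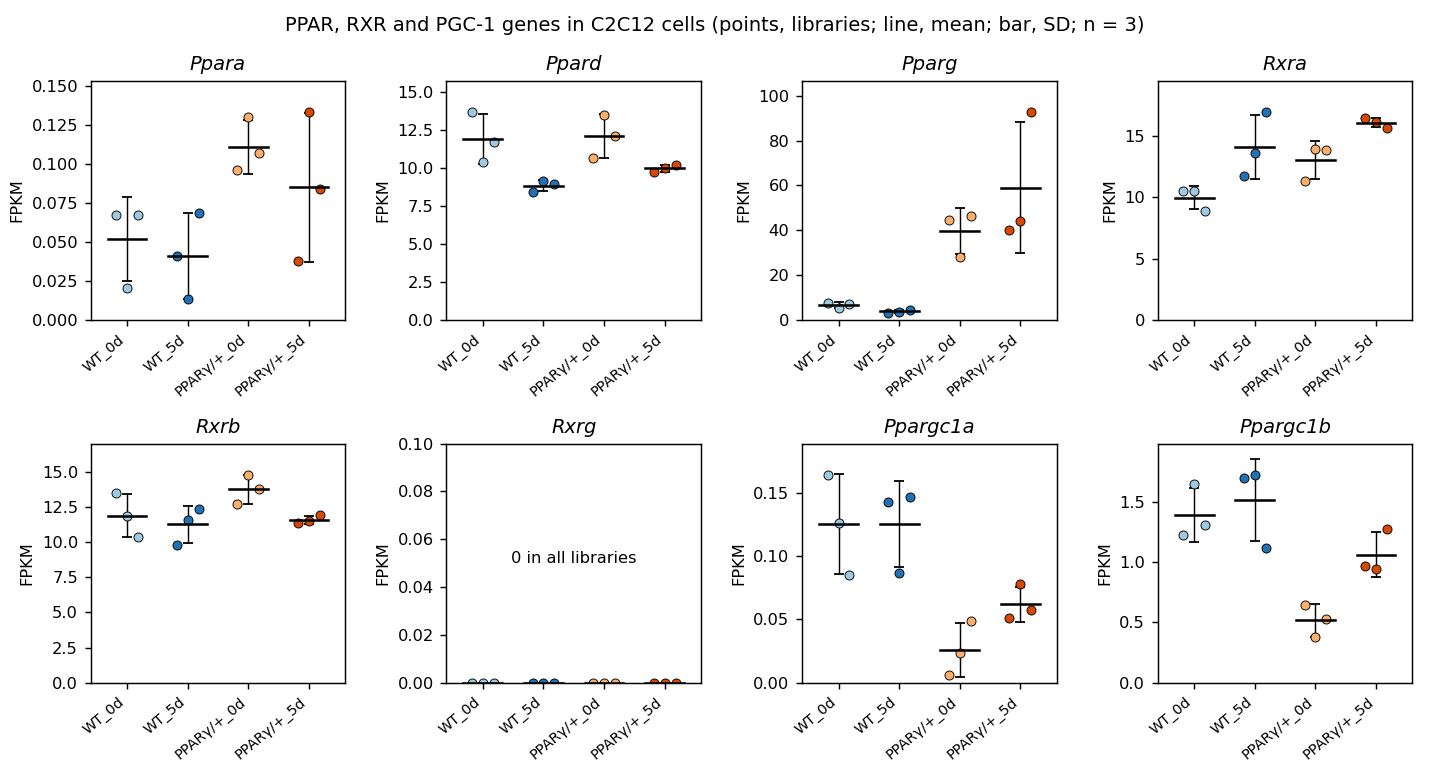
FPKM of the 8 genes in each library (points), by group, with the mean (line) and SD (bar) of 3 libraries; each panel has its own linear axis from 0. All PPARγ/+ libraries lay above all WT libraries for Pparg, with 28.0 FPKM as the lowest PPARγ/+ value and 7.56 FPKM as the highest WT value.

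Pparg (ENSMUSG00000000440) lies on the plus strand at chr6:115360951-115490399 of GRCm38 and encodes the receptor carried by the vector. It was 7.56, 5.10 and 6.92 FPKM in the WT_0d libraries and 44.4, 28.0 and 46.4 FPKM in the PPARγ/+_0d libraries. On 5d it was 3.12, 3.53 and 4.59 FPKM in WT cells and 40.1, 44.1 and 92.7 FPKM in PPARγ/+ cells. The cell types did not overlap on either day, as the labels require, and PPARγ/+_5d replicate 3 stood far above the other libraries. The ratio of the group means was 6.07 on 0d and 15.7 on 5d. On the log2 scale, after adding 0.1 FPKM, Pparg rose by 2.57 (SE 0.24, 95% CI 1.98 to 3.15, limma adjusted p = 0.0115) on 0d. On 5d the difference was 3.85 (SE 0.34, 95% CI 3.01 to 4.69, adjusted p = 0.0379), with all 3 PPARγ/+ libraries above all 3 WT libraries on both days.

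When any library was left out, the Pparg difference lay between 2.40 and 2.80 on 0d and between 3.47 and 4.07 on 5d, while its adjusted p moved across the threshold. On 0d the call was lost without PPARγ/+_0d replicate 3 (adjusted p = 0.0560, range over the left-out libraries 0.0293 to 0.0560). On 5d it was lost without WT_5d replicate 1 (0.125), WT_5d replicate 2 (0.151), PPARγ/+_5d replicate 1 (0.140) or PPARγ/+_5d replicate 2 (0.136), over a range of 0.0116 to 0.151, and with no filter on low genes (0.0607). Fragments from the gene of the cells and from the vector cannot be told apart in these values. The vector holds the coding sequence, which makes up 48.3% of the 2953 bp of exons, while FPKM divides by the length of the whole gene.

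Within WT cells Pparg was lower on 5d than on 0d, with groups that did not overlap and a log2 difference of −0.78 (SE 0.20, adjusted p = 0.0243), under the 2-fold that a call required. Leaving out a library gave adjusted p up to 0.0882, above 0.05 for 4 of the 6 libraries, and no filter on low genes gave 0.0670. Within PPARγ/+ cells the difference of 5d from 0d was 0.50 (SE 0.35, 95% CI −0.33 to 1.33, adjusted p = 0.284). The groups overlapped there, and without PPARγ/+_5d replicate 3 the difference was 0.12. The change over the 5 days differed between the cell types by 1.28 (SE 0.43), which did not pass the test of the interaction after adjustment (adjusted p = 0.252, unadjusted p = 0.0129). Median-ratio scaling moved the median log2 difference of all tested genes from −0.08 to 0.02 in WT cells and from −0.10 to 0.02 in PPARγ/+ cells. Relative to that shift the difference of Pparg was −0.66 (adjusted p = 0.0269) in WT cells and 0.63 in PPARγ/+ cells.

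Ppard (ENSMUSG00000002250, chr17:28232700-28301474, plus strand), the receptor of muscle fatty acid oxidation, varied least among the PPAR genes, by 1.62 times between its lowest and highest library. It was 13.7, 10.4 and 11.7 FPKM in WT_0d and 8.43, 9.16 and 8.93 FPKM in WT_5d. In PPARγ/+ cells it was 10.7, 13.5 and 12.1 FPKM on 0d and 9.76, 10.002 and 10.2 FPKM on 5d. In both cell types every library of 5d lay below every library of 0d. The log2 difference of 5d from 0d was −0.42 (SE 0.11, limma adjusted p = 0.0293) in WT cells and −0.27 (SE 0.09, adjusted p = 0.0489) in PPARγ/+ cells, both under 2-fold. With median-ratio scaling these were −0.29 (adjusted p = 0.0531) and −0.14 (adjusted p = 0.194), and leaving out a library gave adjusted p up to 0.0835 and 0.133. Between the cell types the difference was 0.02 (SE 0.13, adjusted p = 0.9501) on 0d, where its sign turned to −0.02 with median-ratio scaling, and 0.18 (SE 0.06, adjusted p = 0.324) on 5d.

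Ppara (ENSMUSG00000022383, chr15:85734983-85802819, plus strand), the receptor best known from liver, was represented by 1 to 13 fragments per library. It was 0.0672, 0.0207 and 0.0676 FPKM in WT_0d, 0.0409, 0.0135 and 0.0687 FPKM in WT_5d, 0.0961, 0.130 and 0.107 FPKM in PPARγ/+_0d and 0.0377, 0.133 and 0.0842 FPKM in PPARγ/+_5d. The 0d libraries of the cell types did not overlap, whereas those of 5d did. Ppara entered the test through 3 libraries with at least 0.1 FPKM, all of them of PPARγ/+ cells, so a higher value there is partly a condition of its being tested. Its log2 difference of PPARγ/+ from WT was 0.49 (SE 0.20, limma adjusted p = 0.227) on 0d and 0.38 (SE 0.28, adjusted p = 0.613) on 5d. Adding 0.1 FPKM, which exceeds most of these values, shrinks such differences, and the ratio of summed fragments per mapped fragment was 2.24 (95% exact interval 1.14 to 4.65) on 0d and 2.02 (0.922 to 4.67) on 5d, where the interval held equal levels.

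The makeup of the PPAR family was described by each gene's share of its summed FPKM. Pparg made up 35.1% ± 2.06 (SD, n = 3) of the PPAR sum in WT_0d and 29.5% ± 3.74 in WT_5d. In PPARγ/+ cells its share was 75.6% ± 7.33 on 0d and 83.9% ± 5.31 on 5d. Ppard held most of the sum in all WT libraries, and Pparg held most of it in all PPARγ/+ libraries. The sum itself was 18.5 ± 2.90 FPKM in WT_0d, 12.6 ± 1.003 FPKM in WT_5d, 51.8 ± 8.98 FPKM in PPARγ/+_0d and 69.0 ± 29.5 FPKM in PPARγ/+_5d. These shares are a description with no test.

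**Figure D2:**
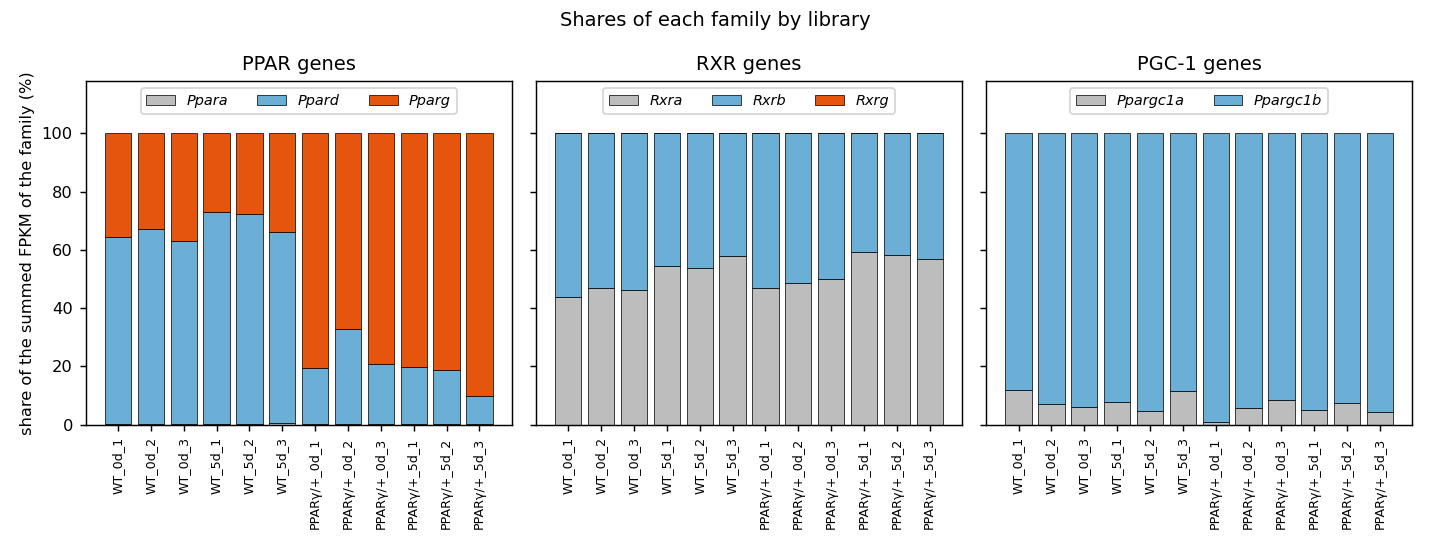
Share of the summed FPKM of each family (%, y axis) that each of its genes held in each of the 12 libraries (x axis), stacked to 100%. Pparg holds 29.5% on average in WT_5d and 83.9% in PPARγ/+_5d, Rxra and Rxrb share the RXR sum with Rxrg at 0, and Ppargc1b holds at least 88.2% of the PGC-1 sum.

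Rxra (ENSMUSG00000015846, chr2:27676440-27762957, plus strand) encodes RXRα, a heterodimer partner of the PPARs. It was 10.5, 10.5 and 8.88 FPKM in WT_0d and 11.8, 13.6 and 17.0 FPKM in WT_5d. In PPARγ/+ cells it was 11.3, 14.0 and 13.9 FPKM on 0d and 16.5, 16.2 and 15.7 FPKM on 5d. Every 5d library lay above every 0d library of its cell type, and every PPARγ/+_0d library lay above every WT_0d library. The log2 difference of 5d from 0d was 0.48 (SE 0.15, limma adjusted p = 0.0455) in WT cells and 0.31 (SE 0.09, adjusted p = 0.0295) in PPARγ/+ cells, both under 2-fold. They were 0.61 (adjusted p = 0.0130) and 0.44 (adjusted p = 0.00422) with median-ratio scaling, and leaving out a library gave adjusted p up to 0.143 and 0.0932. The difference of PPARγ/+ from WT was 0.38 (SE 0.11, adjusted p = 0.131) on 0d and 0.21 (SE 0.13, adjusted p = 0.557) on 5d.

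Rxrb (ENSMUSG00000039656, chr17:34031812-34038399, plus strand), which encodes RXRβ, ranged from 9.85 to 14.8 FPKM and was the steadiest of the expressed members, with 1.504 times between its lowest and highest library. It was 12.8, 14.8 and 13.8 FPKM in PPARγ/+_0d and 11.4, 11.5 and 11.9 FPKM in PPARγ/+_5d. These groups did not overlap, with a log2 difference of −0.24 (SE 0.07, limma adjusted p = 0.0241) that was −0.11 (adjusted p = 0.150) with median-ratio scaling. In WT cells the 5d and 0d libraries overlapped, and the difference of −0.08 (SE 0.13, adjusted p = 0.691) turned to 0.05 with median-ratio scaling. Between the cell types it was 0.22 (SE 0.11, adjusted p = 0.317) on 0d and 0.05 (SE 0.09, adjusted p = 0.852) on 5d.

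Rxrg (ENSMUSG00000015843, chr1:167598384-167639623, plus strand) was listed at 0 in all 12 libraries and was not tested. A floor of 3 fragments corresponds to 0.0501 to 0.0703 FPKM per library and to 0.00487 FPKM over the 12 libraries together. The 0 of a library therefore does not exclude a level under its floor, nor the 0 of all 12 a level under 0.00487 FPKM. Genes used by all cells, such as Actb and Gapdh, were above 0 in every library, which does not show that a low level would be detected. Rxra held 45.6% ± 1.61 of the RXR sum in WT_0d, 55.4% ± 2.10 in WT_5d, 48.6% ± 1.59 in PPARγ/+_0d and 58.1% ± 1.19 in PPARγ/+_5d (SD, n = 3), and Rxrb held the rest. In both cell types all libraries of 5d had a higher Rxra share than all libraries of 0d.

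The summed RXR level spanned a narrower range than the summed PPAR level. It was 21.9 ± 2.42 FPKM in WT_0d, 25.4 ± 3.87 FPKM in WT_5d, 26.9 ± 2.48 FPKM in PPARγ/+_0d and 27.7 ± 0.148 FPKM in PPARγ/+_5d. The level of Pparg divided by the RXR sum was 0.314, 0.228 and 0.359 in the WT_0d libraries and 0.145, 0.140 and 0.157 in the WT_5d libraries. In the PPARγ/+ libraries this ratio was 1.85, 0.972 and 1.67 on 0d and 1.44, 1.59 and 3.35 on 5d. The FPKM of Pparg was thus below the summed RXR FPKM in every WT library. It was above that sum in every PPARγ/+ library except PPARγ/+_0d replicate 2. The coding sequence of the vector is 48.3% of the exons, and FPKM divides by the whole gene. The ratio can therefore understate Pparg RNA in PPARγ/+ cells, and that exception at 0.972 may not hold for the RNA itself.

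Ppargc1b (ENSMUSG00000033871, chr18:61298136-61400431, minus strand), which encodes PGC-1β, was 1.23, 1.65 and 1.31 FPKM in WT_0d and 0.647, 0.375 and 0.528 FPKM in PPARγ/+_0d. On 5d it was 1.70, 1.73 and 1.12 FPKM in WT cells and 0.967, 0.944 and 1.28 FPKM in PPARγ/+ cells. The cell types did not overlap on 0d and overlapped on 5d. On 0d the ratio of the PPARγ/+ mean to the WT mean was 0.370, and Ppargc1b fell by 1.29 on the log2 scale (SE 0.22, 95% CI −1.84 to −0.74, limma adjusted p = 0.0407), with all 3 PPARγ/+ libraries below all 3 WT libraries. This call was lost when any of the 6 libraries was left out, with differences of −1.44 to −1.12 and adjusted p from 0.0601 to 0.137. It was also lost with no filter on low genes (0.0874) and with 1 FPKM added, where the difference of −0.66 was under 2-fold. On 5d the difference was −0.46 (SE 0.22, adjusted p = 0.434).

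Within PPARγ/+ cells every 5d library had more Ppargc1b than every 0d library. The difference of 0.93 (SE 0.22, limma unadjusted p = 0.00463, adjusted p = 0.0131) stayed just under 2-fold, so that it was not called. It passed 2-fold with median-ratio scaling (1.04), with 0.01 FPKM added (1.05), with voom on recovered fragments (1.07), and without PPARγ/+_0d replicate 1 (1.08) or PPARγ/+_5d replicate 2 (1.002). In WT cells the difference was 0.10 (SE 0.22, adjusted p = 0.756). The change over the 5 days differed between the cell types by 0.83 (SE 0.32), which did not pass after adjustment (adjusted p = 0.317, unadjusted p = 0.0237).

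Ppargc1a (ENSMUSG00000029167, chr5:51454250-51567726, minus strand), which encodes PGC-1α, was represented by 1 to 24 fragments per library. It was 0.164, 0.126 and 0.0852 FPKM in WT_0d and 0.143, 0.0865 and 0.147 FPKM in WT_5d. In PPARγ/+ cells it was 0.00622, 0.0233 and 0.0486 FPKM on 0d and 0.0512, 0.0776 and 0.0571 FPKM on 5d. All PPARγ/+ libraries lay below all WT libraries on both days. On 0d, 12 fragments in PPARγ/+ cells stood against 55 in WT cells, a ratio of 0.204 (95% exact interval 0.0997 to 0.386) per mapped fragment, and on 5d 25 stood against 57, a ratio of 0.487 (0.292 to 0.792). Ppargc1a entered the test through 4 libraries with at least 0.1 FPKM, all of WT cells, so a lower value in PPARγ/+ cells is partly a condition of its being tested. The limma difference, shrunk by the added 0.1 FPKM, was −0.84 (SE 0.22, adjusted p = 0.0974) on 0d and −0.47 (SE 0.21, adjusted p = 0.415) on 5d, and neither was called. The voom fit on fragments gave −2.42 (adjusted p = 0.0370) on 0d and −0.97 (adjusted p = 0.316) on 5d.

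From 0d to 5d the difference of Ppargc1a was 0.00 (SE 0.25, limma adjusted p = 0.995) in WT cells and 0.37 (SE 0.24, adjusted p = 0.254) in PPARγ/+ cells, where voom gave 1.51 (adjusted p = 0.0485) and the libraries of the days did not overlap. Ppargc1b held 91.7% ± 3.04 of the PGC-1 sum in WT_0d, 92.0% ± 3.40 in WT_5d, 94.9% ± 3.80 in PPARγ/+_0d and 94.4% ± 1.74 in PPARγ/+_5d (SD, n = 3). The sum was 1.52 ± 0.221, 1.64 ± 0.324, 0.543 ± 0.131 and 1.13 ± 0.184 FPKM in the same order of groups.

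Counted over the 7 members that could be tested, 2 were called on 0d between the cell types (Pparg higher, Ppargc1b lower), where 1.59% of all tested genes were called at an adjusted p of at most 0.05 and at least 2-fold. On 5d 1 was called (Pparg), against 0.155% of all tested genes. These shares move with single libraries: of all tested genes 287 were called on 0d, and 55 to 137 with any library left out. On 5d 28 were called, but 723 without WT_5d replicate 3 and 1 to 8 without another library (6 without PPARγ/+_5d replicate 3). Since the vector carries PPARγ, its call checks the labels and says nothing about the other members. The groups did not overlap for 5 members on 0d (26.8% of all tested genes) and for 3 on 5d (18.5%). An unadjusted p of at most 0.05 was reached by 5 members on 0d and by 2 on 5d, against 21.7% and 12.7% of all tested genes. The 12.7%, also given for the lists below, stands for 2281 genes and was 5332 genes without WT_5d replicate 3. The voom fit called 3 members on 0d, Ppargc1a in addition, and 1 on 5d, beside 482 and 37 of the 17930 genes that it tested. Ppara and Ppargc1a, which passed the filter through a single cell type, are among the 5 members on 0d and Ppargc1a among the 3 on 5d, so these counts support nothing about the members.

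From 0d to 5d, limma called 0 of the 7 members in WT cells and 0 in PPARγ/+ cells at an unadjusted p of at most 0.05 and at least 2-fold, where 16.5% and 15.2% of all tested genes were called. There voom called 0 and 2, beside 3393 and 3309 of the 17930 genes that it tested. Without the condition on size, 3 members in WT cells and 4 in PPARγ/+ cells were at or below an unadjusted p of 0.05, which 46.8% and 54.4% of all tested genes reached, and the same numbers at an adjusted p of 0.05, which 37.1% and 47.5% reached. The groups did not overlap for 3 members in WT cells (51.1% of all tested genes) and for 5 in PPARγ/+ cells (58.1%). The test of the interaction called 0 members by limma and 0 by voom, where 0.76% of all tested genes were called (137 genes, 527 without WT_5d replicate 3 and 42 to 153 without another library). An unadjusted p of at most 0.05 was reached by 2 members (Pparg and Ppargc1b) and by 12% of all tested genes. For the other 5 members the interaction lay between −0.18 and 0.37, with adjusted p between 0.728 and 0.938. These comparisons share libraries. With 3 libraries against 3, an exact two-sided permutation test of a single gene cannot give a p below 0.1.

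**Figure D3:**
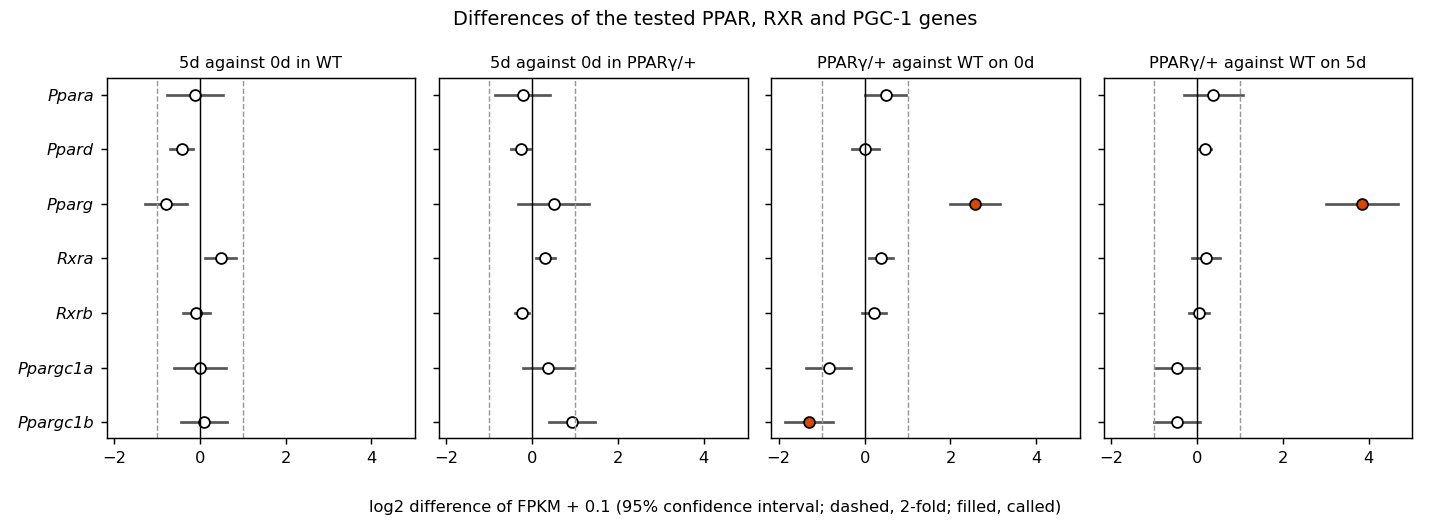
Log2 difference of FPKM + 0.1 (x axis) with its 95% confidence interval for the 7 tested genes (y axis) in the 4 comparisons; dashed lines mark 2-fold, and filled points passed the rule for a call. Pparg stands at 2.57 on 0d and 3.85 on 5d between the cell types, and Ppargc1b at −1.29 on 0d.

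The other partners of RXR, receptors for oxysterols, retinoic acid, vitamin D and thyroid hormone among them, were examined as a list of 13 genes, 9 of which could be tested. Nr4a1, an orphan receptor that responds to many stimuli, rose from 0d to 5d in WT cells (log2 difference of 2.40) and in PPARγ/+ cells (1.48), where 8.94% and 9.11% of all tested genes were called higher. In WT cells Nr4a1 was 5.33, 12.1 and 71.3 FPKM on 5d against 3.90, 2.76 and 2.71 FPKM on 0d, so that replicate 3 stood apart. The WT call was lost without WT_0d replicate 1, 2 or 3 or WT_5d replicate 2, with differences between 2.31 and 2.63. Without WT_5d replicate 3 the difference was 1.36 and without WT_5d replicate 1 it was 3.22, and both were still called. The WT call did not hold at an adjusted p of 0.05 (0.0755) and was also lost with no filter on low genes, and the PPARγ/+ call was lost in the fit to all 12 libraries. The WT count was 0 without WT_0d replicate 2, and 1 higher and 1 lower (Nr4a2, chosen after its values were seen) without WT_5d replicate 3. In the latter fit 1642 genes were called higher and 1415 lower among all 18023 tested genes. Between the cell types on 0d, 1 of the 9 was called higher in PPARγ/+ cells, beside 0.361% of all tested genes. This was Nr1h3, which encodes the oxysterol receptor LXRα (1.14, SE 0.21, limma adjusted p = 0.0471). Its call was lost when any of the 6 libraries was left out (adjusted p 0.0606 to 0.162), among them WT_0d replicate 2. It was also lost with no filter (0.0954), with median-ratio scaling (0.0526), with 0.01 FPKM added (0.0540) and with 1 FPKM added, where the difference of 0.52 was under 2-fold. On 5d and in the interaction limma called 0 of the 9, and voom called 0 in both. An unadjusted p of at most 0.05 was reached by 5 of the 9 in WT cells (46.8% of all tested genes), 4 in PPARγ/+ cells (54.4%), 3 on 0d (21.7%), 1 on 5d (12.7%) and 0 in the interaction (12%).

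Among 24 coactivators, corepressors and regulators of PPAR and PGC-1, 23 could be tested, and 1 was called higher on 5d in WT cells, beside 8.94% of all tested genes. It was Prkaa2, the catalytic subunit α2 of AMP-activated kinase (1.26, SE 0.30). In the other comparisons limma and voom each called 0 of the 23. An unadjusted p of at most 0.05 was reached by 16 of them from 0d to 5d in WT cells (46.8% of all tested genes), by 17 in PPARγ/+ cells (54.4%), by 3 on 0d (21.7%), by 2 on 5d (12.7%) and by 5 in the interaction (12%). Prkaa2 was 0.925, 0.443 and 0.824 FPKM on 0d and 2.31, 1.76 and 1.49 FPKM on 5d, and the call was lost without WT_0d replicate 2 (0.98) and with 1 FPKM added (0.72), both under 2-fold.

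Of 13 transcription factors that PGC-1 proteins coactivate or induce, 11 could be tested, and Mef2c, a regulator of muscle genes, was called higher on 5d in WT cells (2.49) and in PPARγ/+ cells (1.26, chosen after its values were seen). This was 1 of 11 in each, beside 8.94% and 9.11% of all tested genes called higher, while 9 of 11 in each reached an unadjusted p of at most 0.05, beside 46.8% and 54.4%. In WT_5d it was 3.50, 2.23 and 0.212 FPKM, with replicate 3 far below the others. Without that library the WT difference of Mef2c was 3.57, and 2 of the 11 rose in WT cells (Mef2c and Mef2a), beside 1642 of all 18023 tested genes. Mef2c was then also called lower in PPARγ/+ cells on 5d and in the interaction, beside 508 and 274 genes called lower without that library. With it, limma and voom called 0 between the cell types on 0d and on 5d and 0 in the interaction, with 4, 2 and 2 at an unadjusted p of at most 0.05, against 21.7%, 12.7% and 12% of all tested genes. The call of Mef2c in WT cells was lost when any library but WT_5d replicate 3 was left out, with differences between 1.80 and 2.78, and it was not called at an adjusted p of 0.05 (0.0747), by voom or with no filter on low genes. The call in PPARγ/+ cells held in 13 of 15 alternatives. Without WT_0d replicate 2 the gene called in WT cells was Mef2a, chosen after its values were seen.

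The median log2 differences of these lists for 5d against 0d in WT cells were 0.43 for the RXR partners, −0.36 for the coregulators and −0.03 for the PGC-1 partner factors, against −0.08 for all tested genes. Within PPARγ/+ cells they were 0.22, −0.28 and −0.16, against −0.10. Between the cell types they were 0.07, −0.05 and −0.09 on 0d, against 0.02, and 0.12, 0.06 and 0.00 on 5d, against 0.02. In the interaction they were −0.19, 0.11 and 0.07, against −0.01.

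Several of these medians moved with single libraries. For the RXR partners the interaction median turned to 0.12 without WT_5d replicate 3 and was −0.0619 without WT_0d replicate 2. Their WT median was 0.16 without WT_5d replicate 3, their PPARγ/+ median 0.10 without PPARγ/+_5d replicate 3, and their median on 0d −0.00282 without WT_0d replicate 2. On 5d it was 0.20 without WT_5d replicate 3 and 0.0444 without PPARγ/+_5d replicate 3. For the PGC-1 partner factors the WT median turned to 0.00864 without WT_5d replicate 3, and that on 5d to −0.00489 without WT_5d replicate 3 and −0.0114 without PPARγ/+_5d replicate 3. Those of the coregulators moved by less than 1.5 times without these 3 libraries.

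PPAR target genes were examined as a list of 40, of which 35 could be tested, and every one that was called was called higher. On 0d 5 were called between the cell types, against 0.361% of all tested genes called higher. These were Adipoq, which encodes the adipocyte hormone adiponectin, Fabp4, the fatty acid binding protein of adipocytes, the lipid droplet gene Plin4, and Aqp7 and Angptl4, the last 2 chosen after their values were seen and called in 8 of 15 and 7 of 16 alternatives. On 5d 2 were called (Adipoq and Fabp4), against 0.0943% of all tested genes. Of the 35, 6 reached the filter of 0.1 FPKM in PPARγ/+ libraries only (Fabp4, Adipoq, Aqp7, Plin1, Plin5 and Cidec), so a higher value there is partly a condition of their being tested, and 2 reached it in 5d libraries only (Fgf21 and Ucp3). Of the 5 called on 0d, Plin4 and Angptl4 reached the filter in both cell types, and of the 2 called on 5d neither did, so these counts and the medians of the list support nothing about it.

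Adipoq was 2.46, 1.06 and 1.96 FPKM in PPARγ/+_0d and 8.03, 12.7 and 40.5 FPKM in PPARγ/+_5d, and at most 0.0313 FPKM in any WT library. Fabp4 was 1.99, 1.59 and 1.9996 FPKM in PPARγ/+_0d and 4.13, 4.86 and 10.3 FPKM in PPARγ/+_5d, and at most 0.0481 FPKM in any WT library. Neither gene overlapped between the cell types on either day, and PPARγ/+_5d replicate 3, the library with the most Pparg, also had the most of both. For Adipoq 2 fragments in WT_0d stood against 180 in PPARγ/+_0d, a ratio of 84.4 (95% exact interval 23.0 to 702) per mapped fragment, and on 5d 1 fragment stood against 1646, a ratio of 1828 (328 to 72245). The log2 difference of Fabp4 was 3.91 (SE 0.20, limma adjusted p = 0.00380) on 0d and 5.65 (SE 0.36, adjusted p = 0.0166) on 5d, with all 3 PPARγ/+ libraries higher on both days.

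On 5d the calls of Adipoq and Fabp4 were lost without WT_5d replicate 1 (adjusted p = 0.122 and 0.0856), WT_5d replicate 2 (0.136 and 0.0805), PPARγ/+_5d replicate 1 (0.118 and 0.0921) or PPARγ/+_5d replicate 2 (0.136 and 0.0688), while their log2 differences stayed above 5. Both were also lost with 1 FPKM added (0.0871 and 0.0655), and that of Adipoq with no filter on low genes (0.0502). On 0d that of Adipoq was lost without PPARγ/+_0d replicate 3 (adjusted p = 0.0545). The voom fit called 8 target genes on 0d and 2 on 5d, beside 482 and 37 of the 17930 genes that it tested. Its calls on 5d were not Adipoq (voom adjusted p = 0.217) and Fabp4 (0.0658) but Lpl and Angptl4, chosen after their values were seen. Plin4 was 37.5, 26.6 and 30.2 FPKM in PPARγ/+_0d against 14.9, 10.1 and 13.7 FPKM in WT_0d, a difference of 1.28 (SE 0.19, adjusted p = 0.0266), and its call was lost when any library was left out (adjusted p 0.0585 to 0.106), with no filter (0.0747) and in the fit to all 12 libraries.

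The counts of target genes depended on single libraries. On 0d the count was 2 without WT_0d replicate 2 (Adipoq and Fabp4), beside 34 called higher among all tested genes. On 5d it was 11 higher and 1 lower without WT_5d replicate 3, beside 215 higher and 508 lower among all tested genes. This added Plin1, Plin4, Lpl, Angptl4, Cd36, Aqp7, Lipe, Plin2 and Pdk4 to the genes called higher and Fgf21 as lower. Plin1 and Aqp7, like Adipoq and Fabp4, reached the filter in PPARγ/+ libraries only. In the interaction limma and voom each called 0 of the 35. Without WT_5d replicate 3 limma called 2 higher and 2 lower there, beside 253 higher and 274 lower among all tested genes. An unadjusted p of at most 0.05 was reached by 12 of the 35 in WT cells, 24 in PPARγ/+ cells, 16 on 0d, 16 on 5d and 9 in the interaction, beside 46.8%, 54.4%, 21.7%, 12.7% and 12% of all tested genes. Without WT_5d replicate 3 the counts were 16 in WT cells, 24 on 5d and 14 in the interaction, beside 8616, 5332 and 2968 of the 18023 tested genes.

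From 0d to 5d, 7 of the 35 target genes rose in WT cells and 13 in PPARγ/+ cells, where 8.94% and 9.11% of all tested genes were called higher, and 0 were called lower. The differences ranking first in WT cells were those of Fgf21, a hormone of the fasting response (5.70, and 6.55 without WT_5d replicate 3), the fatty acid transporter Cd36 (3.51) and Fabp3, the fatty acid binding protein of heart and muscle (2.54). Fgf21 reached the filter in 5d libraries only, so a higher 5d value is partly a condition of its being tested. In WT_0d Fgf21 rested on 2 fragments and in WT_5d on 543, a ratio of 272 (95% exact interval 75.1 to 2255) per mapped fragment. In PPARγ/+ cells they were those of Fgf21 (4.03), Cd36 (3.47) and Adipoq (3.15, and 2.48 without PPARγ/+_5d replicate 3). In WT_5d Fgf21 was 13.9, 9.64 and 1.89 FPKM, with replicate 3 the lowest. Cd36 was 0.0144, 0.0221 and 0.0120 FPKM in WT_0d and 2.20, 1.14 and 0.709 FPKM in WT_5d, and 0.662, 0.182 and 0.944 FPKM in PPARγ/+_0d and 5.40, 5.79 and 9.34 FPKM in PPARγ/+_5d. Its days did not overlap in either cell type.

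Without WT_5d replicate 3 the WT count was 9 higher and 1 lower (Plin4), beside 1642 higher and 1415 lower among all 18023 tested genes. Without PPARγ/+_5d replicate 3 the PPARγ/+ count was 12, beside 1623 called higher among all tested genes. The median over the list was 0.11 in WT cells, 0.72 in PPARγ/+ cells, 0.29 on 0d and 0.33 on 5d between the cell types and 0.12 in the interaction, beside −0.08, −0.10, 0.02, 0.02 and −0.01 over all tested genes. The WT median was 0.0433 without WT_5d replicate 3 and 0.0309 without WT_0d replicate 2, and the interaction median 0.0589 without WT_5d replicate 3 and 0.00206 without PPARγ/+_5d replicate 3. The voom fit called 8 in WT cells and 17 in PPARγ/+ cells, beside 3393 and 3309 of the 17930 genes that it tested.

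Adipoq, Fabp4, Plin1 and Cidec stand both among the target genes and among the 8 adipocyte markers. Of these markers 6 could be tested; 2 were called higher in PPARγ/+ cells on 0d and on 5d (Adipoq and Fabp4), beside 0.361% and 0.0943% of all tested genes, 4 were called higher on 5d than on 0d in PPARγ/+ cells (Cfd, Adipoq, Plin1 and Fabp4), beside 9.11%, and 0 were called in WT cells by limma or voom, with 0 at an unadjusted p of at most 0.05 (46.8% of all tested genes). Without WT_5d replicate 3 a further marker, Plin1, was called higher on 5d, beside 215 of the 18023 tested genes. Between the cell types voom called 4 of the 6 on 0d and 0 on 5d, beside 482 and 37 of the 17930 genes that it tested. An unadjusted p of at most 0.05 was reached by 5 on 0d and 6 on 5d, beside 21.7% and 12.7% of all tested genes. Of the 6, 5 reached the filter in PPARγ/+ libraries only, all but Cebpa, and Cfd reached it in PPARγ/+_5d libraries only, so its higher 5d value is partly a condition of its being tested; its call held in 10 of 15 alternatives. The counts between the cell types therefore support nothing about the markers. Their summed level was 9.03, 9.19 and 6.58 FPKM in WT_0d, 8.42, 11.6 and 14.1 FPKM in WT_5d, 14.4, 13.0 and 14.3 FPKM in PPARγ/+_0d and 30.5, 37.7 and 90.1 FPKM in PPARγ/+_5d. Cebpa was the most abundant of them in 11 libraries and Adipoq in PPARγ/+_5d replicate 3. Lep was listed at 0 in all 12 libraries and Cidec in all 6 of WT cells. The part of these markers in the results on the target genes was not tested, and in such bulk RNA fewer cells of a type and less RNA per cell cannot be told apart.

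Muscle markers moved as well. Of the 10 myoblast and myotube markers, 8 were called higher and Myf5 lower on 5d in WT cells, where 8.94% of all tested genes were called higher and 7.53% lower, and 9 were called higher in PPARγ/+ cells, beside 9.11%. The WT call of Myod1 (1.31) did not hold at an adjusted p of 0.05 (0.0708) and was lost with no filter on low genes and without WT_0d replicate 1 or 3 or WT_5d replicate 1 or 2. Without WT_5d replicate 3 Des was called higher in WT cells too, beside 1642 of the 18023 tested genes. Between the cell types Myf5 and Des were called lower on 0d, beside 1.23% of all tested genes; Des was lost without WT_0d replicate 2 and was called in 7 of 16 alternatives, Myf5 in 15 of 16. On 5d limma and voom called 0, with 5 at an unadjusted p of at most 0.05 (12.7% of all tested genes). Without WT_5d replicate 3, 8 were called lower and 9 reached that unadjusted p, beside 508 and 5332 of the 18023 tested genes. Their summed level, led by Des on 0d and Acta1 on 5d, was 178, 319 and 136 FPKM in WT_0d, 4590.4, 3581 and 1058 FPKM in WT_5d, 62.7, 72.6 and 100.2 FPKM in PPARγ/+_0d and 1152, 1313 and 1359 FPKM in PPARγ/+_5d. Of the 5 fibroblast markers 4 could be tested; 3 were called higher on 5d in WT cells and 4 in PPARγ/+ cells, beside 8.94% and 9.11% of all tested genes, led on 5d by Dcn, and without WT_5d replicate 3 Col1a1 was called higher in WT cells and lower in PPARγ/+ cells on 5d. Their sum was 81.5, 93.7 and 87.4 FPKM in WT_0d, 466, 506 and 269.98 FPKM in WT_5d, 19.5, 34.5 and 38.835 FPKM in PPARγ/+_0d and 510.2, 555 and 614 FPKM in PPARγ/+_5d. The blood and immune list, 2 of 4 tested, summed to between 2.82 and 6.48 FPKM and was led by Cd68; Hba-a1 was called lower on 5d in WT cells, beside 7.53% of all tested genes, in 9 of 16 alternatives and not without WT_0d replicate 2. The part of these markers in the levels of the PPAR, RXR and PGC-1 genes was not tested.

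The genes whose pattern over the 12 libraries was most like that of a member were searched for the 5 members with a mean of at least 1 FPKM in a group, which left out Ppara, Ppargc1a and Rxrg, among 12373 genes that reached the same level. They follow the 4 groups, so that r describes the likeness and tests nothing. For Pparg they were Fabp4 (Pearson r = 0.975), Adipoq (0.945) and Fam183b (0.932). For Ppard they were Yap1 (0.971), Prr13 (0.967) and Nfatc1 (0.964). For Rxra they were Aptx (0.990), Zfp799 (0.986) and Pik3ip1 (0.985), for Rxrb Mfsd11 (0.952), Smad1 (0.938) and Sppl3 (0.938), and for Ppargc1b Peg3 (0.969), Cdk5r1 (0.961) and Pdgfb (0.957).

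The promoters of the members are shown because a PPAR and an RXR bind together to repeats of AGGTCA, so the letters tell where such a motif stands near the RefSeq starts of their own genes. RefSeq promoters of GRCm38.p6, from 250 bases before to 50 after a start, matched 7 of the 8 members with 12 promoters, since a gene can have several starts. AGGTCANAGGTCA, searched on both strands, was in 13 of all 32851 promoters (0.0396%), in 0 of the 12 and in 0 of 32 promoters of the target genes. Its element AGGTCA, or TGACCT on the other strand, was in 16.3% of all promoters, in 4 of the 12 (those of Pparg, Rxra and Rxrg) and in 10 of the 32. A match describes the letters and shows no binding. The stretches printed here, each with a match before such a start, lie inside the genes as annotated above. They begin from 150 bases (Pparg) to 32789 bases (Rxra) after the annotated start, and so precede internal starts. They are at chr6:115361101-115361136 and chr6:115362325-115362348 in Pparg, chr2:27709190-27709225 and chr2:27709229-27709264 in Rxra and chr1:167618162-167618197 in Rxrg, all printed from the plus strand with the motif in capitals.
Pparg, 1: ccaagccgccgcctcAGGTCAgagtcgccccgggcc
Pparg, 2: ataagggacgcgaggAGGTCAaga
Rxra, 1: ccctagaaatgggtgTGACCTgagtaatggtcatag
Rxra, 2: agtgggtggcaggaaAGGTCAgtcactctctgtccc
Rxrg: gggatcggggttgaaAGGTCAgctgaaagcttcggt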

How the data were processed

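Total RNA of the 12 libraries was extracted with TRIzol and made into unstranded TruSeq libraries for paired-end Illumina sequencing. The authors used Trim Galore for trimming, STAR for alignment and HTSeq for counts per Ensembl gene, and deposited FPKM. A second deposited table holds log2(FPKM + 1), equal to the FPKM table to within 5.33e-14, and was left unused. The methods name GRCm38 and the submitters' processing notes mm9; the table holds no positions, and those printed come from a GENCODE annotation of GRCm38.

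limma (version 3.58.1, R 4.3.3, empirical Bayes with a trend, two-sided) tested log2(FPKM + 0.1) of the 18023 genes with at least 0.1 FPKM in at least 3 libraries, with Benjamini-Hochberg adjustment over all of them. Each comparison used its own 6 libraries and the interaction all 12. Calls from 0d to 5d required an unadjusted p of at most 0.05 and at least 2-fold, calls between cell types an adjusted p of at most 0.05 and at least 2-fold, and the interaction an adjusted p of at most 0.05. Adding 0.1 shrinks differences of low genes. Fragments were recovered as FPKM times length times mapped fragments, whole at the annotated length for 21030 genes and at a length inferred from the steps between values for 5933; 17930 tested genes entered voom. The code was tested on simulated data. Summaries used Python 3.11.15, numpy 2.4.6, pandas 2.3.3 and scipy 1.17.1.

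The text names all members, Myod1, Myog, any marker, per list and comparison up to 3 called genes with the largest log2 differences and at least 1 FPKM, and the 3 genes most correlated with each member of at least 1 FPKM on average in a group. The members, lists and libraries doubted were chosen with earlier results of these data known. Alternatives were other pseudocounts, filters, scalings, voom, an unadjusted or adjusted p, a fit to all 12 libraries, the replicate number as a block, and leaving out each library.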

Additional observations from a re-analysis of the deposited data

Results flagged for a closer look

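Myf5, the early myogenic regulator in the muscle marker list, moved in opposite directions over the 5 days in WT and PPARγ/+ cells. Myf5 was 11.3, 13.2 and 11.6 FPKM in WT_0d and 5.96, 3.53 and 3.79 FPKM in WT_5d, with every 5d library below every 0d library. In PPARγ/+ cells it was 3.66, 4.25 and 3.96 FPKM on 0d and 5.58, 6.27 and 8.47 FPKM on 5d, with every 5d library above every 0d library. The log2 difference was −1.46 (limma adjusted p = 0.00268) in WT cells and 0.74 (adjusted p = 0.00791, under 2-fold) in PPARγ/+ cells. The test of the difference itself gave 2.20 (SE 0.27, adjusted p = 0.00844).

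Fam183b, named for its likeness to Pparg over the same 12 libraries, passed the same test with 2.18 (SE 0.37, limma adjusted p = 0.0263). For this gene the test cannot decide whether the change differed between the cell types. It was listed at 0 in all 6 WT libraries, so its WT change is fixed at 0 by the added 0.1 FPKM and the tested value equals its change in PPARγ/+ cells. It also reached the filter through PPARγ/+ libraries only. It was 0.434, 0.541 and 1.05 FPKM in PPARγ/+_0d and 3.06, 3.03 and 3.61 FPKM in PPARγ/+_5d. The result no longer passed without 8 of the 12 libraries, by voom (0.226), with 0.01 FPKM added (0.134), with a filter of 1 FPKM (0.108) or with the replicate number as a block (0.0512).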

How the results depend on the processing

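Apart from leaving out libraries, 551 of the values for single genes kept their direction and their side of the threshold, 8 newly passed it, 36 no longer passed it and 4 changed sign. The sign changes were those of Rxrb in WT cells with median-ratio scaling (0.0522) and quantile normalization (0.0559), Ppargc1a in WT cells with quantile normalization (−0.15) and Ppard on 0d with median-ratio scaling (−0.0180).

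With 1 FPKM added, 1441 genes were called in WT cells, 1241 in PPARγ/+ cells, 115 on 0d and 8 on 5d; with 0.01 FPKM added, 71 were called on 5d. A filter of 1 FPKM gave 1806 in PPARγ/+ cells, and no filter gave 107 on 0d. With an unadjusted p, 661 genes were called on 0d, 606 on 5d and 2164 in the interaction. voom called 482 on 0d, and the fit to all 12 libraries called 199 on 5d. Of the members, 1 was called in PPARγ/+ cells with 0.01 FPKM added and with median-ratio scaling, and 2 with voom; 1 on 0d with 1 FPKM added and with no filter; 0 on 5d with no filter; and 2 in the interaction with an unadjusted p. Apart from settings that test more genes or relax the threshold, the cause was not tested.

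No pairing of the libraries by replicate number was seen. Over all tested genes, same-numbered libraries deviated together with correlations of −0.068 to 0.083, and differently numbered ones with −0.122 to 0.102. Such correlations cannot exclude a pairing that affects some genes. With the replicate number as a block, 3029 genes were called in WT cells, 2766 in PPARγ/+ cells, 0 on 0d, 0 on 5d and 61 in the interaction, and 0 members on 0d and 0 on 5d.

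Leaving out 1 library gave 55 to 137 genes on 0d, 1 to 723 on 5d and 42 to 527 in the interaction, against 2765 to 3057 in WT cells and 2535 to 2829 in PPARγ/+ cells, and 0 to 1 members in PPARγ/+ cells, on 0d and on 5d. Changes of sign gave these ranges of log2 differences: in WT cells Ppara −0.27 to 0.0389, Rxrb −0.17 to 0.0188, Ppargc1a −0.13 to 0.13 and Ppargc1b −0.000605 to 0.29; on 0d Ppard −0.0737 to 0.12; on 5d Rxrb −0.0463 to 0.12; in the interaction Ppara −0.30 to 0.0848, Myod1 −0.10 to 0.75 and Myog −0.47 to 1.19. These fits rest on fewer samples.

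Depth limits Ppara and Ppargc1a, with at most 13 and 24 fragments in a library, and Rxrg, listed at 0. The other members had at least 39 fragments in every library.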
